A study of Homo sapiens with 12 samples.

Results

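The interaction of an EZH2 mutation with a KMT2D mutation was measured in OCI-Ly7, an established human B-cell lymphoma line labelled as a B cell from pleural effusion, grown in IMDM with fetal bovine serum and with no treatment. The 4 lines were the wild type (genotype WT), a line with EZH2 Y646N, a line labelled kmt2d-/-, and a line carrying both changes, kmt2d-/- + EZH2 Y646N, here the double mutant. They form a 2 by 2 design. RNA counts for 11 of the 12 samples were used: 3 libraries each of wild type, KMT2D mutant and double mutant, and 2 of the EZH2 mutant, whose replicate 3 has no column in the count table and was not analysed here. The interaction is the double mutant minus the KMT2D mutant, less the EZH2 mutant minus the wild type, on the log2 scale. A value of 0 means that the fold changes of both mutations multiply, a positive value that the double mutant stood above that product, and a negative value that it stood below. The EZH2 effect in KMT2D mutant cells (double mutant against KMT2D mutant) and in wild-type cells (EZH2 mutant against wild type) use different libraries.

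The table lists 28278 genes, and 8813 had enough counts to test. Of these, 380 lie on the long arm of chromosome 19 (19q) and were counted apart, leaving 8433 off that arm. The labels do not say that replicates were separate cultures, so p-values reflect no more than the spread of these libraries, which may be technical. Nor do they say how many clones each line stands for, so a property of a line and an effect of its genotype cannot be told apart. The columns named DM were read as this double mutant.

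EZH2 is the catalytic subunit of Polycomb repressive complex PRC2, which methylates lysine 27 of histone H3 at silenced genes. Y646N changes a tyrosine of its catalytic domain, and such mutations favour the trimethylated state. KMT2D is a lysine methyltransferase of the COMPASS family that monomethylates lysine 4 of histone H3 at enhancers, and its loss lowers enhancer activity. Both genes are recurrently mutated in lymphomas that arise from germinal centre B cells, the sites where B cells mutate and select their antibody genes. Some PRC1 complexes bind the mark that PRC2 writes.

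Library totals ran from 1118710 counts in EZH2 mutant replicate 1 to 3107871 in KMT2D mutant replicate 1, so that 3 counts correspond to 0.965 to 2.68 counts per 1000000 (CPM). Within a line, log2 CPM correlated at 0.96 to 0.983 across genes, which are not independent replicates. The 7 B-cell markers summed to between 12900 and 22800 CPM of the library total, and all 7 were detected in each line. Summed T and NK cell markers, 10 of 11 in the table, were at 2.29 to 4.47 CPM across wild type, 1.79 to 2.29 in the EZH2 mutant, 6.76 to 11.5 in the KMT2D mutant and 0 to 1.41 in the double mutant, with CD3D, CD2 and CD8A at 0 in every line. The 10 myeloid markers summed to 19.4 to 33.9, 16.5 to 17.0, 11.5 to 17.5 and 4.93 to 6.46 CPM in the same order, with CSF1R, S100A8, S100A9 and FCGR3A at 0 in every line. The 11 fibroblast and epithelial markers reached at most 5.69 CPM, and the 6 plasma cell markers summed to 489 to 956 CPM with SDC1 at 0 in every line. In bulk RNA, fewer cells of a type and less RNA per cell cannot be told apart.

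EZH2 itself (GRCh38, GENCODE 29: chromosome 7, 148807383 to 148884321, minus strand) was at 70.2, 85.0 and 75.5 normalised CPM across wild type, 54.3 and 75 in the EZH2 mutant, 64.6, 65.8 and 65.1 in the KMT2D mutant and 91.3, 81.6 and 87.8 in the double mutant. The wild-type and double mutant values overlapped, and the interaction of log2 0.64 (SE 0.23, adjusted p = 0.15) did not pass. Every double mutant library lay above every KMT2D mutant library, and that difference was called at log2 0.42 (SE 0.15, adjusted p = 0.03). KMT2D (chromosome 12, 49018975 to 49059774, minus strand) was at 27.2, 44.2 and 29.1 CPM across wild type, 19.5 and 41.2 in the EZH2 mutant, 41.1, 40.9 and 34.5 in the KMT2D mutant and 65.6, 39.3 and 33.7 in the double mutant. All 4 lines overlapped, with an interaction of log2 0.34 (SE 0.42, adjusted p = 0.76), which was -0.01 and 1.09 without EZH2 mutant replicate 1 and 2 and -0.09 after thinning to equal depth. A base change, or a deletion of part of a gene, need not change the count of its RNA, so these levels do not check the genotypes.

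The interaction passed at an adjusted p under 0.05 for 266 of the 8813 genes tested (3.02%). Off 19q, 131 genes were called lower (1.55% of 8433) and 56 higher (0.664%). In the lower genes the double mutant fell short of the product of the single effects by a median log2 of -1.64, and 102 of them differed by at least 1 log2 unit. The higher genes exceeded that product by a median of 1.4, 46 of them by at least 1. All 131 and all 56 had the same sign when the interaction was taken as a difference of linear CPM. Tests were also run on simulated counts of 8813 genes at these depths. Each simulated gene had the same mean in every line, and an interaction was placed in the double mutant alone. Of genes given an interaction of log2 1, 21% were called, and of those given log2 2, 66%. Most smaller interactions would thus not be seen here, and recovery in genes with single-mutant effects was not measured. By comparison, the EZH2 effect off 19q was called for 32.3% of genes in wild-type cells and 40.8% in KMT2D mutant cells, the KMT2D effect for 5.69% in wild-type cells and 2.29% in EZH2 mutant cells, and the double mutant against wild type for 23.7%.

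These counts rest on few libraries. Off 19q, 187 genes were called in all, against 114 without KMT2D mutant replicate 1, 121 without KMT2D mutant replicate 3, 116 without double mutant replicate 3, and 235 without double mutant replicate 1. The lower genes numbered 77 to 80 when EZH2 mutant replicate 2, KMT2D mutant replicate 1 or 3, or double mutant replicate 3 was left out. The higher genes numbered 37 without KMT2D mutant replicate 1 and 109 without double mutant replicate 1.

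**Figure D1:**
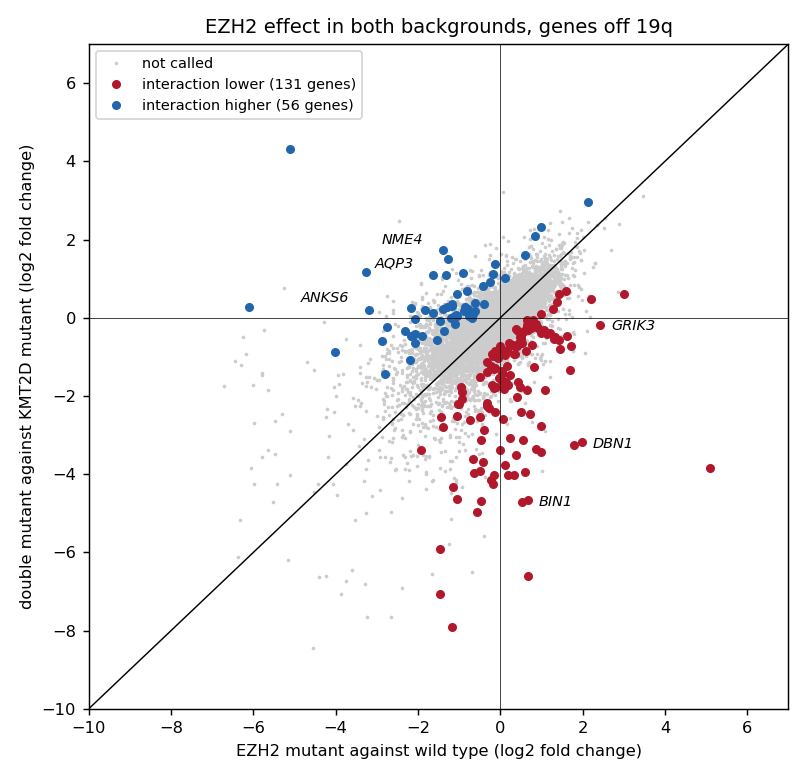
Each point is a tested gene off 19q, with the log2 fold change of EZH2 mutant against wild type on the horizontal axis and of double mutant against KMT2D mutant on the vertical axis. Points on the diagonal have the same EZH2 effect in both backgrounds; the 131 genes with a lower interaction (red) lie below it and the 56 with a higher one (blue) above it.

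The largest class of lower genes was lowered by the EZH2 mutation in KMT2D mutant cells and not called in wild type. For 68 of the 131, the EZH2 effect was called down in KMT2D mutant cells (median log2 -1.77) and was not called in wild-type cells (median 0.0). It was down in both backgrounds for 15 genes, with medians of -1.04 in wild-type and -2.8 in KMT2D mutant cells. For 26 it was up in wild type (median 0.95) and not called in KMT2D mutant cells (median -0.26), and for 20 it was up in wild type and down in KMT2D mutant cells (0.9 and -1.05). The remaining 2 were up in both. The class of 68 held 38, 41, 45 and 37 genes when KMT2D mutant replicate 1, KMT2D mutant replicate 3, double mutant replicate 2 or double mutant replicate 3 was left out.

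Seen from the other mutation, 52 of the 131 lower genes rose with the KMT2D mutation in wild-type cells (median log2 0.95) and were not called for it in EZH2 mutant cells (median -0.49). A further 17 rose in wild-type cells and fell in EZH2 mutant cells (0.93 and -2.05), 40 fell in EZH2 mutant cells and were not called in wild-type cells, 20 were called in neither background and 2 fell in both. The class of 52 held 23, 27, 31 and 31 genes without KMT2D mutant replicate 1, KMT2D mutant replicate 3, EZH2 mutant replicate 2 or double mutant replicate 3. Against wild type, 66 of the 131 were lower in the double mutant (median -1.82), 58 were not called and 7 were higher.

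Among the 56 higher genes, 30 fell with the EZH2 mutation in wild-type cells (median log2 -1.24) and were not called for it in KMT2D mutant cells (median 0.08). In 10 more the EZH2 effect went from down to up (-1.29 and 1.09), 6 fell in both backgrounds by unequal amounts (-2.13 and -0.62), 6 rose in KMT2D mutant cells and were not called in wild type, and 4 rose in both. The class of 30 held 67 genes without double mutant replicate 1 and 18 without double mutant replicate 3. Against wild type, 31 of the 56 were not called in the double mutant, 17 were lower and 8 higher.

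Separation of single libraries gave the same outline. All 3 double mutant libraries lay below all 8 others for 66 of the 131 lower genes, against 3.39% of tested genes off 19q, and all 3 KMT2D mutant libraries lay above all others for 65, against 8.57%. Both EZH2 mutant libraries lay above all others for 27, against 10.4%. For 34 of the 56 higher genes both EZH2 mutant libraries lay below all others, against 8.12%. All double mutant libraries lay above the rest for 8, against 1.41%, and all KMT2D mutant libraries below the rest for 9, against 6.38%. The interaction was computed from these same libraries, so these counts describe the shape of the called genes and are not a separate test. The summed T and NK cell markers given above were also highest in the KMT2D mutant and lowest in the double mutant. Their means were 3.2 CPM in wild type, 2.04 in EZH2 mutant, 9.06 in KMT2D mutant and 0.778 in double mutant libraries. PRF1 alone, itself among the 131 lower genes, had means of 2.57, 2.27, 7.68 and 0.416 normalised CPM in that order. The order of the sum is thus largely that of PRF1, whose call was lost in 17 of 22 alternatives. The myeloid markers were lowest in the double mutant, and both sums were at low levels. Only some markers of each list were at 0. For the 10 T and NK cell markers these were 5 in wild type, 9 in EZH2 mutant, 4 in KMT2D mutant and 8 in double mutant libraries. Of the T and NK cell list only PRF1 had enough counts to test, and it was called lower. The myeloid list had 1 tested gene, which was not called. Any part of other cell types in the called genes was not tested.

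**Figure D2:**
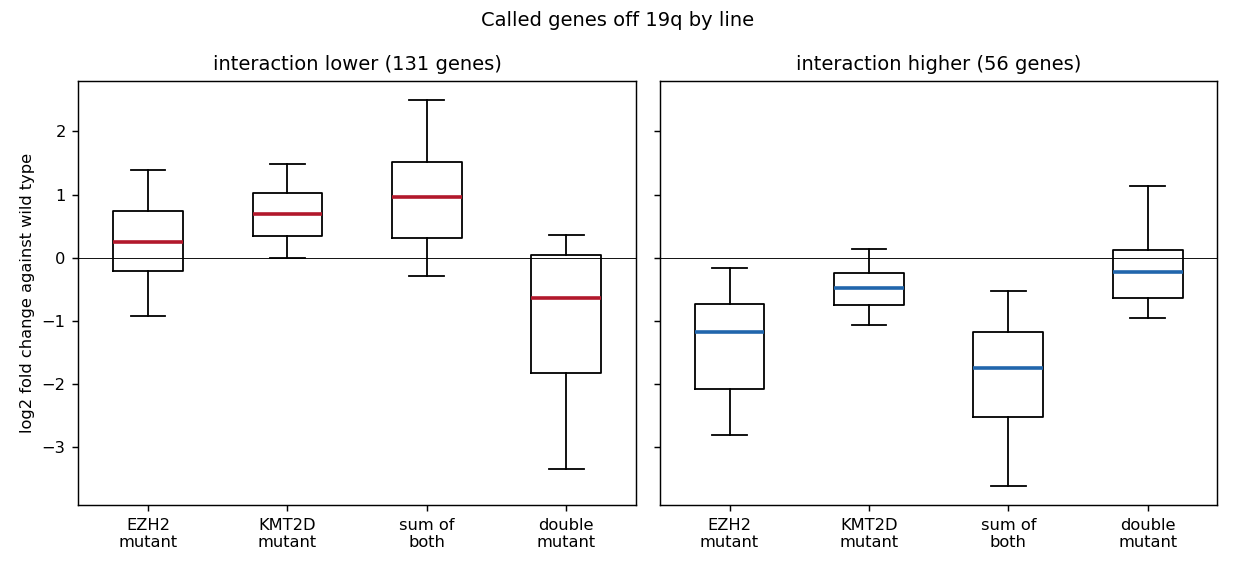
Log2 fold change against wild type of the called genes off 19q in the EZH2 mutant, the KMT2D mutant, the sum of both, and the double mutant; boxes are quartiles with the median, and whiskers run from the 10th to the 90th percentile of genes. The 131 lower genes have a median sum of 0.96 and a double mutant median of -0.63, and the 56 higher genes -1.75 and -0.23.

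Genes that moved the same way in both single mutants show how the changes failed to multiply. Off 19q, 30 tested genes rose in both the EZH2 and the KMT2D mutant, and 23 of these were among the 131 lower genes. Of the 23, the double mutant was not called against wild type for 15, lower for 5 and higher for 3. In the other direction 43 tested genes fell in both single mutants, and 13 were among the 56 higher genes, with the double mutant still lower than wild type for 10 of them and not called for 3. Wild-type libraries enter both single effects and the interaction, so these overlaps are a description.

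TCL1A was the most abundant gene of the 23. It encodes a coactivator of the AKT kinase that is active in immature and germinal centre B cells. TCL1A (chromosome 14, 95709967 to 95714196, minus strand) was at 2740, 2560 and 2920 CPM across wild type, 3880 and 3920 in the EZH2 mutant, 3770, 3890 and 3510 in the KMT2D mutant, and 2820, 2870 and 2590 in the double mutant. Both single mutants lay above both other lines, which overlapped each other. The product of the single effects would have been 5310 CPM, and the interaction was log2 -0.94 (SE 0.17, adjusted p = 0.0025).

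DBN1 went further, ending below wild type. It encodes drebrin, an actin-binding protein. This gene (chromosome 5, 177456608 to 177474401, minus strand) was at 12.4, 8.5 and 5.37 CPM across wild type, 33.8 and 33.3 in the EZH2 mutant, 24.4, 27.5 and 26.0 in the KMT2D mutant and 2.47, 4.53 and 1.74 in the double mutant. No single-mutant library overlapped wild type, and every double mutant library lay below it. The product of the single effects would have been 99.3 CPM. The interaction was log2 -5.16 (SE 0.47, adjusted p = 1.1e-06), from an EZH2 effect of 1.97 in wild-type cells and -3.19 in KMT2D mutant cells.

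RIPOR2, an inhibitor of the GTPase RhoA, had the same shape at a higher level. Its libraries were at 43.6, 41.8 and 34.1 CPM across wild type, 46.1 and 67.5 in the EZH2 mutant, 81.0, 66.5 and 77.4 in the KMT2D mutant and 7.9, 9.82 and 8.14 in the double mutant. The EZH2 and KMT2D mutant libraries overlapped, and the double mutant lay far below every other library (interaction log2 -3.69, SE 0.3, adjusted p = 2.7e-07). PGGHG, a glucosidase of collagen-linked sugars, also ended below wild type, with an interaction of log2 -4.42 (SE 0.45). LBH, a transcriptional cofactor gene, rose in both single mutants and was not called against wild type in the double mutant (interaction -3.75, SE 0.49). LBH was at 3.74 to 5.75 CPM in wild type, 23.7 to 28.3 in the KMT2D mutant and 2.91 to 4.53 in the double mutant, which overlapped wild type. None of these 5 genes lost its call in any of 23 alternative analyses.

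BIN1 had the largest negative interaction among called genes off 19q with a mean of at least 10 CPM. It encodes amphiphysin 2, a membrane-curving protein that also binds MYC. BIN1 (chromosome 2, 127048027 to 127107355, minus strand) was at 3.96, 6.12 and 6.9 CPM across wild type, 12.3 and 7.45 in the EZH2 mutant, 34.1, 48.3 and 44.8 in the KMT2D mutant, and 0.987, 3.02 and 1.16 in the double mutant. The KMT2D mutant libraries lay far above all others and the double mutant libraries below all others. The double mutant held 8 counts in all, so the size of the interaction rests on few counts. The interaction was log2 -5.34 (SE 0.59, adjusted p = 1.5e-05), with a rise of 2.84 with the KMT2D mutation in wild-type cells and a fall of -4.67 with the EZH2 mutation in KMT2D mutant cells.

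Other genes with their peak in the KMT2D mutant followed BIN1. TMEM54, a membrane protein gene, was at 36.2, 36.2 and 43.3 CPM in the KMT2D mutant, 4.22 to 6.79 in wild type, 2.98 to 8.19 in the EZH2 mutant and 1.16 to 2.47 in the double mutant (interaction log2 -4.07, SE 0.66). VPREB1, which encodes a surrogate light chain component of the pre-B cell receptor, was at 42.6, 32.2 and 42.5 CPM in the KMT2D mutant, 4.08 to 6.9 in wild type and 1.99 to 2.05 in the EZH2 mutant. In the double mutant VPREB1 held 3 counts over 3 libraries against 299 in the KMT2D mutant, so no fold is given. Its call was lost without EZH2 mutant replicate 2 (adjusted p = 0.17). SLC4A11, a membrane transporter gene, also held 3 counts in the double mutant, against 79 in wild type and 149 in the KMT2D mutant. In all, 13 of the lower genes and 3 of the higher genes had a line with 3 counts or fewer, and their fitted values depend on the prior count.

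**Figure D3:**
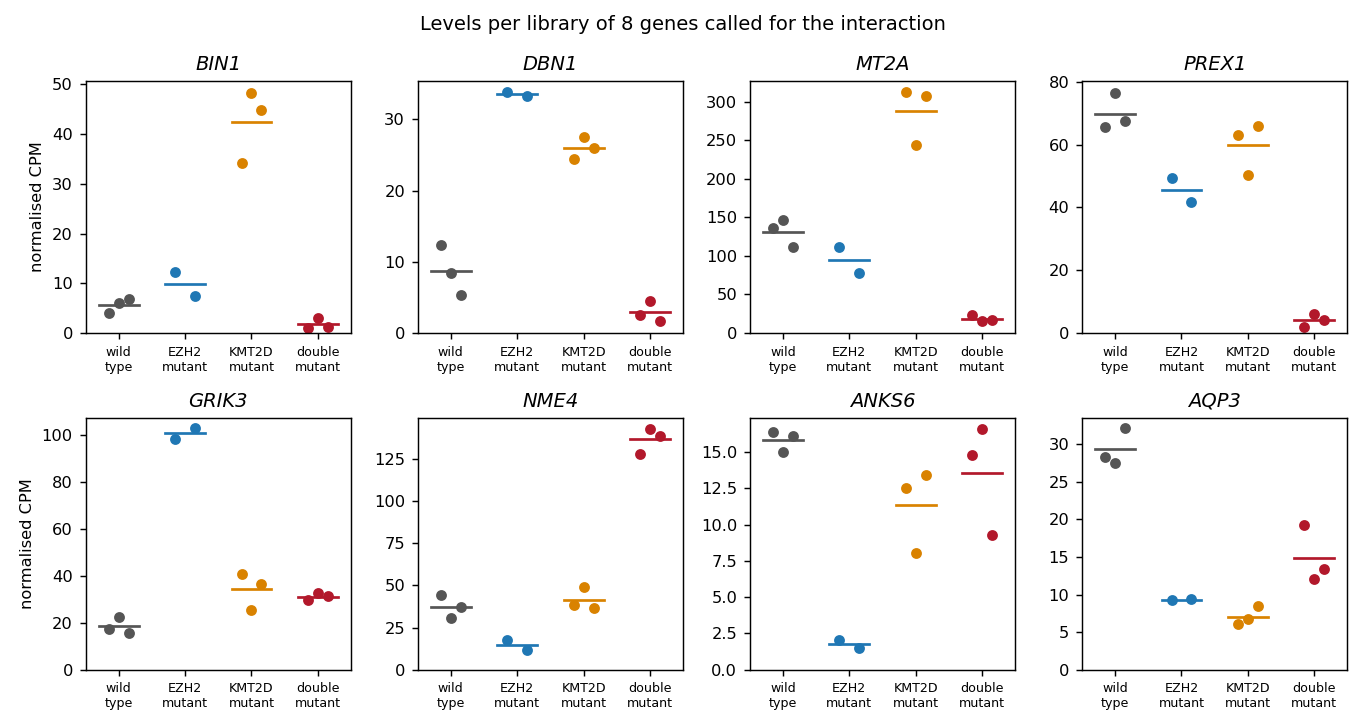
Normalised CPM of 8 genes called for the interaction, 1 panel per gene, with points for libraries and bars for the mean of each line on axes that start at 0. BIN1 and MT2A peak in the KMT2D mutant, PREX1 is lowest in the double mutant, GRIK3 peaks in the EZH2 mutant, and NME4 peaks in the double mutant.

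The metallothionein gene MT2A, whose product binds zinc and copper and buffers metal and oxidative stress, was the most abundant of the 12 genes with the largest negative interactions. It was at 136, 146 and 111 CPM across wild type, 112 and 77.9 in the EZH2 mutant, 312, 244 and 307 in the KMT2D mutant, and 23.7, 15.1 and 16.9 in the double mutant. The KMT2D mutant lay above and the double mutant below all other libraries. The product of the single effects would have been 208 CPM, and the interaction was log2 -3.43 (SE 0.28, adjusted p = 2.7e-07). The neighbouring metallothionein gene MT1X, chosen after its values were seen, was at 10.2, 18.0 and 4.6 CPM across wild type, 6.15 and 3.97 in the EZH2 mutant, 23.5, 18.8 and 32.2 in the KMT2D mutant and 5.92, 0.755 and 1.74 in the double mutant. Its order of lines was the same, but the interaction of log2 -1.78 (SE 0.92, adjusted p = 0.38) did not pass. Metallothionein genes are close copies, and how reads shared between them were counted is not given in the sources used here.

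Metallothionein promoters are known for metal response elements, the sites of the zinc-sensing factor MTF1, and both promoters are printed because the 2 genes had the same order of lines. They are the 250 bases before the start of each gene from RefSeq (GRCh38.p14), MT2A at chr16:56608334-56608583 and MT1X at chr16:56682220-56682469, both on the plus strand, with matches to TGCACNC or TGCGCNC on either strand in capitals.
MT2A: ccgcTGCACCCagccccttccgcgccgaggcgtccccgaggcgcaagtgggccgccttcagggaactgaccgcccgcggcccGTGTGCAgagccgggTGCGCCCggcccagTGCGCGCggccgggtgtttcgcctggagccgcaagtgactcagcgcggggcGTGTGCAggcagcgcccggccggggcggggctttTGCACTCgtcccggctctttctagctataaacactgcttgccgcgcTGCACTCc
MT1X: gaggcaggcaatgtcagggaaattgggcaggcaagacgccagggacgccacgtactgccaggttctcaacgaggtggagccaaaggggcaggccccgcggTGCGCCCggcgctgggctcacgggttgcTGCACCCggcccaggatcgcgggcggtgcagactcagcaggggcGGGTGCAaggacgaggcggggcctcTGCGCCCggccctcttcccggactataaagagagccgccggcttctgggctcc
MT2A held 7 matches and MT1X 4. Of 27305 promoters of this length, 24.7% held at least 1 match, 0.366% at least 4 and 0.033% at least 7. A match is a description of the letters, not a measured site.

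The next genes, called by size or within their class, were also lowest in the double mutant. PREX1, an activator of the GTPase Rac (chromosome 20, 48624252 to 48827883, minus strand), was at 65.6, 76.5 and 67.5 CPM across wild type, 49.2 and 41.7 in the EZH2 mutant, 63.1, 50.3 and 65.9 in the KMT2D mutant and 1.97, 6.04 and 4.07 in the double mutant. Wild type and the KMT2D mutant overlapped, the EZH2 mutant was lower, and the double mutant lay below all others (interaction log2 -3.33, SE 0.36, adjusted p = 1.1e-05). RHOC, a small GTPase gene, was at 101, 98.0 and 104 CPM in the KMT2D mutant, 41.1 to 67.5 in wild type, 31.3 to 39.9 in the EZH2 mutant and 7.4 to 9.88 in the double mutant (log2 -2.93, SE 0.33). RHOA, chosen after its values were seen, was at 0.24 (SE 0.28, adjusted p = 0.75).

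LGALS1, which encodes the secreted lectin galectin-1, was at 136, 120 and 98.1 CPM across wild type, 101 and 94.8 in the EZH2 mutant, 228, 189 and 203 in the KMT2D mutant and 46.9, 42.3 and 34.9 in the double mutant. The KMT2D mutant lay above and the double mutant below all other libraries. The interaction was log2 -2.05 (SE 0.23, adjusted p = 1.7e-05). MFGE8, a bridging protein in the clearance of dying cells, was at 20.4, 41.6 and 32.9 CPM in the KMT2D mutant, 14.1 to 15 in wild type, 6.95 to 7.17 in the EZH2 mutant and 0.755 to 1.74 in the double mutant. Its interaction was log2 -3.57 (SE 0.64), from 6 counts in all in the double mutant. MFGE8 was 1 of the 15 genes lowered by the EZH2 mutation in both backgrounds. C16orf74 (log2 -3.31, SE 0.28) and the protein disulfide isomerase gene PDIA5 (-3.91, SE 0.65, from 6 counts in the double mutant) were also lowest there. None of these 6 called genes lost its call in any alternative.

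IFITM2 and APOBEC3C, which restrict viruses, were among the clearest lower calls. IFITM2 was at 88.3, 81.9 and 93.5 CPM across wild type, 138 and 112 in the EZH2 mutant, 151, 175 and 153 in the KMT2D mutant, and 31.6, 34.7 and 23.8 in the double mutant. It rose in each single mutant and fell below wild type in the double mutant, with an interaction of log2 -2.91 (SE 0.23, adjusted p = 2.7e-07). Its paralogs IFITM1 and IFITM3, looked up after their values were seen, were at -0.1 (SE 0.19) and -1.36 (SE 0.73), neither called. APOBEC3C was at 60.5, 67.0 and 61.3 CPM across wild type, 26.6 and 29.3 in the EZH2 mutant, 80.7, 87.9 and 99.6 in the KMT2D mutant and 4.44, 6.8 and 2.32 in the double mutant. The double mutant lay below every other library, with an interaction of log2 -3.18 (SE 0.35, adjusted p = 1.2e-05). The related APOBEC3G, APOBEC3D and APOBEC3F, also looked up afterwards, were at -0.54, -0.91 and 0.38, none called. Reads shared between such paralogs make the level of each member uncertain.

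The class of 26 lower genes that rose with the EZH2 mutation in wild type and were not called for it in KMT2D mutant cells included GRIK3. It encodes a kainate-type glutamate receptor subunit. This gene (chromosome 1, 36795527 to 37034129, minus strand) was at 17.5, 22.4 and 15.7 CPM across wild type, 98.3 and 103 in the EZH2 mutant, 40.8, 25.5 and 36.4 in the KMT2D mutant and 29.6, 32.5 and 31.4 in the double mutant. The EZH2 mutant libraries lay far above all others, and the KMT2D mutant and double mutant overlapped. The EZH2 effect was log2 2.42 (SE 0.21) in wild-type cells and -0.17 (SE 0.2) in KMT2D mutant cells, and the interaction was -2.6 (SE 0.29, adjusted p = 1.3e-05).

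PLCH2, a phospholipase C gene, went from 4.22 to 9.05 CPM in wild type to 53.3 and 40.7 in the EZH2 mutant, but was at 7.28 to 9.4 in the KMT2D mutant and 10.9 to 12.8 in the double mutant (interaction log2 -2.4, SE 0.43). CAPG, an actin-capping protein gene, and CD300A, an inhibitory surface receptor, showed the same order of their EZH2 effects, with interactions of log2 -1.72 (SE 0.34) and -2.44 (SE 0.45). ACY3, an aminoacylase gene, was at 378 and 340 CPM in the EZH2 mutant against 133 to 196 in wild type, and at 151 to 177 in the double mutant against 213 to 227 in the KMT2D mutant (log2 -1.54, SE 0.2, adjusted p = 0.00013). Its EZH2 effect was called up in wild type and down in KMT2D mutant cells.

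NME4 was among 17 higher genes whose highest mean was in the double mutant. It encodes a mitochondrial nucleoside diphosphate kinase. NME4 (chromosome 16, 396725 to 410367, plus strand) was at 44.1, 30.9 and 37.2 CPM across wild type, 17.4 and 11.9 in the EZH2 mutant, 38.7, 49.0 and 36.4 in the KMT2D mutant and 128, 143 and 139 in the double mutant. Wild type and the KMT2D mutant overlapped, the EZH2 mutant lay below and the double mutant above. The EZH2 effect was log2 -1.4 (SE 0.25) in wild-type cells and 1.74 (SE 0.17) in KMT2D mutant cells, and the interaction was 3.14 (SE 0.3, adjusted p = 2.6e-06). Its relatives NME1 and NME3, looked up afterwards, were at 0.3 (SE 0.18) and -0.1 (SE 0.26), neither called.

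Of the 56 higher genes, 43 had their lowest mean in the EZH2 mutant, and both single effects were negative for 44. ANKS6, an ankyrin repeat protein of the primary cilium (chromosome 9, 98731329 to 98796965, minus strand), was at 16.4, 15 and 16.1 CPM across wild type, 2.05 and 1.49 in the EZH2 mutant, 12.5, 8.06 and 13.4 in the KMT2D mutant and 14.8, 16.6 and 9.3 in the double mutant. Only the EZH2 mutant libraries lay apart (interaction log2 3.39, SE 0.58, adjusted p = 0.0019), near the level of 3 counts. CSRP1, a LIM-domain protein of the actin cytoskeleton, was at 62.8, 66.3 and 67.5 CPM across wild type, 13.3 and 6.45 in the EZH2 mutant, 67.3, 59.1 and 60.1 in the KMT2D mutant and 48.4, 43.1 and 32.5 in the double mutant. The EZH2 effect was called down in both backgrounds, at log2 -2.87 and -0.59, with an interaction of 2.28 (SE 0.34, adjusted p = 0.00049).

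GSTO1, a glutathione transferase, was also lowest in the EZH2 mutant, at 55.4 to 67.3 CPM across wild type, 18.4 and 8.94 in the EZH2 mutant, 79.2 to 87.1 in the KMT2D mutant and 58.2 to 68.7 in the double mutant (interaction log2 1.97, SE 0.31). Its EZH2 effect was called down in wild-type cells (log2 -2.31) and not called in KMT2D mutant cells (-0.34). INSR, the insulin receptor, was at 30 to 38.1 CPM across wild type, 1.02 and 6.95 in the EZH2 mutant, 17.1 to 28.7 in the KMT2D mutant and 17.3 to 21.1 in the double mutant (2.51, SE 0.5). ATP1B1, a subunit of the sodium pump, was called at 2.42, but not without EZH2 mutant replicate 2 (1.75, adjusted p = 0.22), double mutant replicate 2 or 3 (2.38 and 2.16) or wild type replicate 2 or 3 (2.35 and 2.39). LRP4 and HELZ2 were called at 1.77 and 2.4, and lost their calls without EZH2 mutant replicate 2, at 1.57 and 1.79 (adjusted p = 0.15 and 0.058).

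AQP3, the aquaglyceroporin that carries water and glycerol, was low in both single mutants and less so in the double mutant. It was at 28.3, 27.5 and 32.2 CPM across wild type, 9.22 and 9.43 in the EZH2 mutant, 6.09, 6.71 and 8.42 in the KMT2D mutant, and 19.2, 12.1 and 13.4 in the double mutant. The lines did not overlap, and the double mutant lay between wild type and the single mutants. The product of the single effects would have been 2.25 CPM, against a measured mean of 14.9 ± 3.82 (SD, n = 3), an interaction of log2 2.74 (SE 0.41, adjusted p = 0.00049).

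Of the lists of chromatin genes, the 19 tested PRC1 subunits off 19q gave 3 higher calls and 0 lower, with a list median of log2 0.02. Over all genes off 19q, 0.664% were called higher and 1.55% lower. Among them SCMH1, a Sex comb protein, was highest in the double mutant, at 77.3 to 88.8 CPM against 58.3 to 74.1 in wild type, 46.2 to 49.2 in the EZH2 mutant and 43.9 to 53.0 in the KMT2D mutant (1.24, SE 0.24). PCGF5, a ring finger partner of the PRC1 ligase, was called at 1.37 (SE 0.34). That call was lost without EZH2 mutant replicate 2 (0.7, adjusted p = 0.35), KMT2D mutant replicate 1 or 3 (1.35 and 1.4), double mutant replicate 2 or 3 (1.4 and 1.22) or wild type replicate 3 (1.31). Of 12 PRC2 subunits, 16 KMT2 and COMPASS subunits, 18 acetyltransferases and deacetylases and 14 demethylases, edgeR called 0, with 2, 0, 3 and 0 at an unadjusted p under 0.05. Over all 8433 genes tested off 19q, 6.39% were higher and 7.62% lower at an unadjusted p under 0.05, the share against which such counts are to be read here and below.

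**Figure D4:**
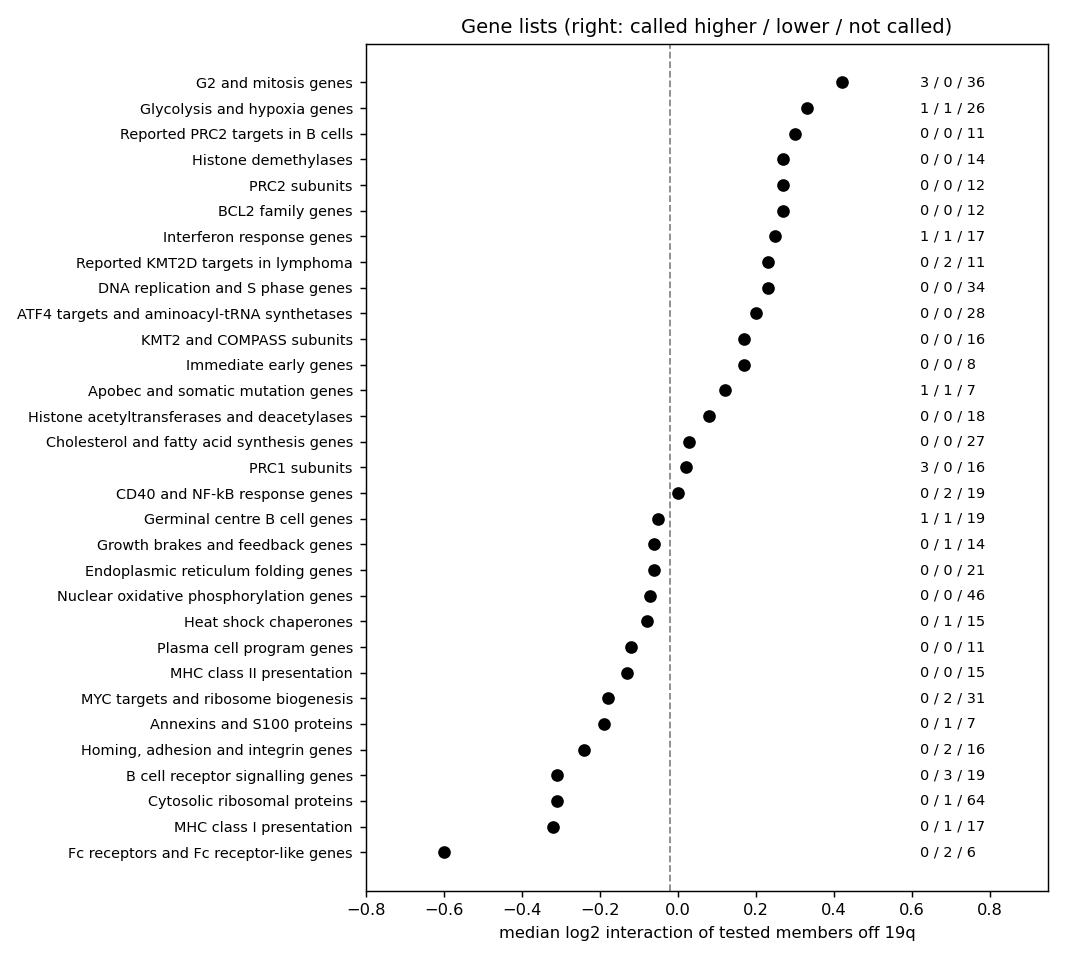
Median log2 interaction of the tested members off 19q for each gene list with at least 8 of them, with the numbers called higher, lower and not called at the right; the dashed line is the median of all genes tested off 19q, -0.02. The G2 and mitosis list is highest at 0.42 and the Fc receptor list lowest at -0.6.

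Off 19q, 131 of the 187 calls were lower, the background for the direction of the list counts that follow. Lower calls were 1.55% and higher calls 0.664% of all genes off 19q, the shares for those counts. Of 22 B cell receptor signalling genes, 5 were lower and 1 higher at an unadjusted p under 0.05. Among the 22, 3 were called lower and 0 higher, with a list median of log2 -0.31. Among them CD79B, a signalling chain of the receptor, was called at -0.88 and INPP5D, the inhibitory phosphatase SHIP1, at -0.67. Leaving out 1 library ended the call for 8 of the 11 libraries with CD79B (values from -0.68 to -0.87; KMT2D mutant replicate 3, EZH2 mutant replicate 2 and wild type replicate 1 did not) and for 9 with INPP5D (-0.56 to -0.71; EZH2 mutant replicate 2 and double mutant replicate 1 did not).

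Fc receptor and Fc receptor-like genes had 2 of 8 called lower and 0 higher. The list median was log2 -0.6, with 4 lower and 0 higher at an unadjusted p under 0.05. FCMR, the receptor for IgM, was at 9.05, 9.86 and 12.7 CPM across wild type, 7.17 and 7.94 in the EZH2 mutant, 23.5, 30.9 and 25.7 in the KMT2D mutant, and 2.96, 3.02 and 2.91 in the double mutant. The KMT2D mutant lay above and the double mutant below all others, with an interaction of log2 -2.66 (SE 0.49, adjusted p = 0.0034), or -2.55 (adjusted p = 0.072) without EZH2 mutant replicate 2. FCRL2, an inhibitory receptor of memory B cells, rose in both single mutants and was at 9.38 to 12.2 CPM in the double mutant against 7.36 to 9.58 in wild type (-2.25, SE 0.4). Its call was lost without EZH2 mutant replicate 2 (-1.82, adjusted p = 0.085).

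In the homing and adhesion list, 2 of 18 were called lower and 0 higher, with 4 lower and 2 higher at an unadjusted p under 0.05. CXCR5, the chemokine receptor that places B cells in follicles, was at 29.4, 25.5 and 23.0 CPM across wild type, 34.8 and 36.2 in the EZH2 mutant, 51.5, 60.4 and 48.6 in the KMT2D mutant and 15.3, 15.9 and 15.7 in the double mutant. No line overlapped another. The double mutant, expected at 73.2 CPM if the effects multiplied, was lowest, and the interaction was log2 -2.23 (SE 0.28, adjusted p = 7.7e-05). S1PR4, a sphingosine phosphate receptor, was at 221, 247 and 192 CPM in the KMT2D mutant and between 97.8 and 125 in every other library (-0.94, SE 0.21), and missed the threshold without double mutant replicate 3 (-0.85, adjusted p = 0.054).

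The germinal centre list held 1 higher and 1 lower call among 21, with a median of -0.05. Of these 21, 3 were higher and 6 lower at an unadjusted p under 0.05 (6.39% and 7.62% over all genes off 19q). BCL6, the repressor that maintains the germinal centre state, was at 124, 102 and 130 CPM across wild type, 35.8 and 43.7 in the EZH2 mutant, 99.6, 93.3 and 80.8 in the KMT2D mutant and 62.7, 55.9 and 64.5 in the double mutant. The EZH2 mutation lowered it in both backgrounds, by log2 -1.55 in wild-type and -0.58 in KMT2D mutant cells, and the interaction was 0.97 (SE 0.24, adjusted p = 0.03). Leaving out EZH2 mutant replicate 1 or 2, KMT2D mutant replicate 3, double mutant replicate 1 or 3, or wild type replicate 1 or 3 put its adjusted p at 0.05 to 0.097, with values of 0.86 to 1.16. POU2AF1, the B-cell coactivator OBF-1, was called at -0.73, a call lost without 7 of the 11 libraries (EZH2 mutant replicate 2, KMT2D mutant replicates 1 and 3, all 3 double mutant replicates and wild type replicate 3, at -0.64 to -0.73). Of 11 plasma cell program genes and 15 MHC class II genes edgeR called 0, with 0 and 2 at an unadjusted p under 0.05. Of 18 MHC class I genes 1 was lower, NLRC5, the transactivator of these genes, at log2 -0.71 (SE 0.18), with 6 lower at an unadjusted p under 0.05. Its call was lost without EZH2 mutant replicate 2, any KMT2D mutant replicate, double mutant replicate 2 or 3, or wild type replicate 2 or 3 (-0.63 to -0.71).

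Lists drawn from earlier reports on the 2 enzymes gave few calls. Of 13 reported KMT2D targets in lymphoma 2 were called lower and 0 higher, against 1.55% and 0.664% of all genes off 19q. The list median was log2 0.23, with 4 higher and 3 lower at an unadjusted p under 0.05 (6.39% and 7.62% over all genes off 19q). BTG2, an antiproliferative gene, was at 115, 117 and 115 CPM across wild type, 118 and 138 in the EZH2 mutant, 204, 166 and 186 in the KMT2D mutant, and 122, 95.2 and 95.3 in the double mutant. It stood apart in the KMT2D mutant alone, with an interaction of log2 -0.99 (SE 0.21, adjusted p = 0.012), or -0.85 (adjusted p = 0.088) without EZH2 mutant replicate 2. The second, the interleukin 10 receptor gene IL10RA, was called at -1.84, a call that 7 of the 11 libraries each ended when left out (-1.6 to -2.06; KMT2D mutant replicate 2, double mutant replicate 2 and wild type replicates 1 and 3 did not). Of 11 reported PRC2 targets in B cells 0 were called, with 1 at an unadjusted p under 0.05.

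Growth and metabolism lists were largely not called. Among 39 genes of G2 and mitosis, 3 were called higher and 0 lower, 15 were higher at an unadjusted p under 0.05 (6.39% over all genes off 19q) and 32 lay above 0. The list median was log2 0.42, from an EZH2 effect of -0.67 in wild-type cells and -0.24 in KMT2D mutant cells. NEK2, a kinase of centrosome separation, was at 69.0, 76.2 and 85.1 CPM across wild type, 15.4 and 23.8 in the EZH2 mutant, 62.7, 61.1 and 79.7 in the KMT2D mutant and 40.5, 53.6 and 55.2 in the double mutant (interaction log2 1.44, SE 0.3, adjusted p = 0.0091). The EZH2 mutant lay below every other library, and wild type overlapped the KMT2D mutant. The phosphatase gene CDC25B was called at 0.77 and lost the call without EZH2 mutant replicate 2, KMT2D mutant replicate 2, double mutant replicate 2 or wild type replicate 3 (0.65 to 0.78). The securin gene PTTG1, at 1.16, lost it without any of 9 libraries (0.88 to 1.26; EZH2 mutant replicate 2 and double mutant replicate 1 were the exceptions).

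Of 34 S phase genes, 46 oxidative phosphorylation genes and 27 genes of cholesterol and fatty acid synthesis 0 were called, with 4, 7 and 7 at an unadjusted p under 0.05 in either direction (14.0% over all genes off 19q). Among 65 cytosolic ribosomal proteins 1 was lower, RPL38, at log2 -1.04 (SE 0.23), and 17 were lower at an unadjusted p under 0.05 (7.62% over all genes off 19q). The RPL38 call was lost without EZH2 mutant replicate 2 (-0.87), KMT2D mutant replicate 3 (-0.91) or wild type replicate 3 (-0.97). In the MYC target and ribosome biogenesis list 2 of 33 were lower, RRP12 and NIP7, and 0 higher, with a median EZH2 effect of 1.13 in wild-type and 0.77 in KMT2D mutant cells. RRP12 (log2 -0.9) lost its call without any library but double mutant replicate 1 (-0.77 to -1.0), and NIP7 (-0.93) lost it without EZH2 mutant replicate 2, KMT2D mutant replicate 1 or 3, double mutant replicate 2 or 3, or wild type replicate 1 or 3 (-0.76 to -0.94).

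Of 28 glycolysis and hypoxia genes 7 were higher and 1 lower at an unadjusted p under 0.05 (6.39% and 7.62% over all genes off 19q). Among the 28, 1 was called each way. The higher one, PFKFB4 (log2 1.01), lost its call without EZH2 mutant replicate 2, KMT2D mutant replicate 1 or 3, double mutant replicate 2, or wild type replicate 1 or 3 (0.86 to 1.03). HK1, the first enzyme of glycolysis, was at 72.4, 65.6 and 59.8 CPM across wild type, 95.3 and 63.5 in the EZH2 mutant, 46.9, 65.1 and 62.4 in the KMT2D mutant and 16.8, 22.7 and 23.2 in the double mutant. Wild type and both single mutants overlapped, and the double mutant lay below them all (interaction log2 -1.71, SE 0.29, adjusted p = 0.0019). HSPB1, a small heat shock protein and the only called gene of 16 heat shock chaperones, was at 1850, 1600 and 1730 CPM across wild type, 917 and 770 in the EZH2 mutant, 1850, 1950 and 1880 in the KMT2D mutant and 408, 441 and 387 in the double mutant. The EZH2 mutation lowered HSPB1 by log2 -1.03 where KMT2D was intact and by -2.2 where it was not, an interaction of -1.17 (SE 0.18, adjusted p = 0.00057).

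In the interferon list 3 of 19 were higher and 2 lower at an unadjusted p under 0.05. Of the 19, 1 was called higher and 1 lower, the lower one being IFITM2. MX1, an antiviral GTPase, was at 40.7, 35.4 and 43.7 CPM across wild type, 73.7 and 69.0 in the EZH2 mutant, 25.9, 32.9 and 25.7 in the KMT2D mutant and 107, 127 and 124 in the double mutant. No line overlapped another, and the EZH2 mutation raised MX1 by log2 0.83 in wild-type and 2.1 in KMT2D mutant cells (interaction 1.27, SE 0.24, adjusted p = 0.0046). GPER1, a membrane estrogen receptor, and TUBB3, a tubulin gene, also rose more in KMT2D mutant cells. GPER1 was called at 0.84 (SE 0.19), a call lost without EZH2 mutant replicate 2 (0.77, adjusted p = 0.082) or KMT2D mutant replicate 1 (0.79, adjusted p = 0.056). TUBB3 was at 93.4, 84.7 and 102 CPM across wild type, 231 and 146 in the EZH2 mutant, 49.7, 52.4 and 39.8 in the KMT2D mutant and 237, 245 and 219 in the double mutant (1.31, SE 0.25, adjusted p = 0.0042). H2AX, the histone variant phosphorylated at DNA breaks, was low in the KMT2D mutant alone, at 185 to 214 CPM against 277 to 415 in all other libraries (1.16, SE 0.2).

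On 19q the interaction had another form. Of the 380 tested genes of the arm, 76 were called higher (20.0%) and 3 lower (0.789%), and 84.7% lay above 0. The arm's median was log2 0.71, against -0.02 for the genes elsewhere and -0.1 to 0.11 over 23 other units, the other chromosomes and the short arm of chromosome 19. The higher calls numbered 20 without EZH2 mutant replicate 2, 39 without KMT2D mutant replicate 1, 38 without KMT2D mutant replicate 3, 41 without wild type replicate 1 and 40 without double mutant replicate 2. The 3 lower calls became 0 without KMT2D mutant replicate 1 or 3 or wild type replicate 2, and 1 without either EZH2 mutant replicate or any double mutant replicate.

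The shift sat in the KMT2D mutant. Relative to the wild-type mean, the median gene of the arm was at log2 -0.68, -0.61 and -0.72 in the 3 KMT2D mutant libraries, and between -0.06 and 0.19 in the other 8. The KMT2D effect had an arm median of -0.71 in wild-type cells, with 190 genes called down and 5 up, and of -0.02 in EZH2 mutant cells, with 3 down and 6 up. The arm took 5.62% to 5.81% of all counts in KMT2D mutant libraries and 7.89% to 8.89% in the rest. The double mutant, which carries the same KMT2D genotype by its label, did not share the lower arm, at a median of 0.13 against wild type.

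**Figure D5:**
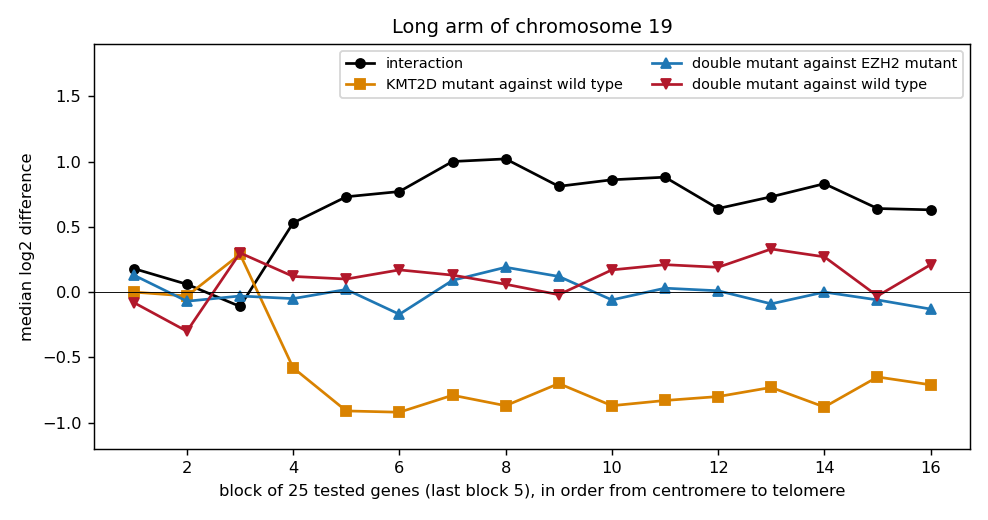
Median log2 difference of tested genes on 19q in 16 consecutive blocks of 25 genes (the last of 5), ordered from the centromere to the telomere, for the interaction and 3 contrasts. The first 3 blocks lie between -0.11 and 0.18 for the interaction, and the KMT2D mutant against wild type is below -0.5 from block 4 on.

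The blocks along the arm fell into a proximal and a distal stretch, divided where the block median of the KMT2D mutant against wild type passed below log2 -0.5. That contrast enters the interaction, so the difference between the stretches follows from the division and is a description. The first 75 tested genes from the centromere had a median interaction of log2 0.01, with 1 called higher and 2 lower. The 305 genes from SIPA1L3 to the telomere had a median of 0.8, with 75 higher and 1 lower. TRPM4, a calcium-activated cation channel, was at 113, 101 and 118 CPM across wild type, 139 and 89.9 in the EZH2 mutant, 30.8, 34.2 and 31.4 in the KMT2D mutant and 133, 115 and 119 in the double mutant. Only the KMT2D mutant stood apart (interaction log2 1.92, SE 0.25, adjusted p = 8.2e-05), and it was more than the arm's own shift. ATF5, a stress-response transcription factor, was at 1390, 1440 and 1300 CPM across wild type, 787 and 528 in the EZH2 mutant, 585, 671 and 649 in the KMT2D mutant and 1130, 1360 and 999 in the double mutant. It was low in both single mutants (1.95, SE 0.22, adjusted p = 1.9e-05).

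When the counts of the KMT2D mutant on this distal stretch were offset by the stretch's own median, 10 genes of the arm were called higher and 6 lower, an analysis added after the data were seen. ATF5 was then at log2 1.14 (adjusted p = 0.0072), TRPM4 at 1.11 (0.02), C19orf81 at 1.7 (0.0024) and CLEC11A, a secreted growth factor gene, at 2.1 (0.015). NAPSA, an aspartic protease gene, was at -2.32 (0.00067) and its pseudogene NAPSB at -1.1 (0.01), 2 copies that can share reads. Without the offset NAPSA was at -1.51 (SE 0.35, adjusted p = 0.022), a call lost without EZH2 mutant replicate 1, KMT2D mutant replicate 1 or 3, double mutant replicate 1 or wild type replicate 2 (-1.28 to -1.52).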

How the data were processed

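The authors deposited RNA counts per gene as whole numbers that they call corrected; what was corrected is not given in the sources used here. Per the submitters' processing notes the tools were Trim Galore 0.6.0, cutadapt 1.15, FastQC, STAR 2.7.0f and DESeq2. The counting program, its handling of strand and shared reads, the build and the annotation are not given in the sources used here. From these counts edgeR 4.0.16 (R 4.3.3) fitted 1 term per line over all 11 libraries, after filterByExpr (minimum count 10) and TMM scaling, with robust quasi-likelihood tests and Benjamini-Hochberg adjustment over all 8813 genes at 0.05. Another 13188 genes were at 0 in every library. Normalised CPM is the count per 1000000 after TMM scaling, and every adjusted p is edgeR's unless another tool is named. Log2 values and product levels come from the fit and from group means. Each SE is the size of the log2 value divided by the square root of its test's F statistic. No batch is given by the labels.

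Chromosome arms came from RefSeq (GRCh38.p14), or else GENCODE 29, the boundary being the widest gap between genes of chromosome 19; 78 tested genes were not placed and counted as off 19q. Named genes were EZH2 and KMT2D, the 12 largest interactions each way among called genes off 19q with a mean of at least 10 CPM, the 4 smallest adjusted p each way on 19q, and up to 4 called genes per list and per class of response, passing over clone names and Y-linked genes. Of 39 lists with 908 entries, 902 were found, 12 under another symbol. The question, its genes and its lists were chosen with earlier results of these data known. Alternatives were DESeq2 1.42.0, limma-voom (limma 3.58.1), other scalings and filters, no robust step, a replicate block, thinning, leaving out each library, leaving out 19q and, added after the data were seen, an offset for 19q. The test was checked on simulated counts with no single-mutant effects, where 1 gene with no interaction was called. Floors of 3 counts cover counting error only. A few called genes are not reported here.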

Additional observations from a re-analysis of the deposited data

Results flagged for a closer look

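The EZH2 effect differed between wild-type and KMT2D mutant cells for 187 genes off the long arm of chromosome 19, by edgeR's interaction term (adjusted p). In 30 of them the effect was called in opposite directions in the 2 backgrounds, 20 with a lower and 10 with a higher interaction. Named among these with a lower interaction were DBN1 (log2 -5.16), PGGHG (-4.42), LBH (-3.75), RIPOR2 (-3.69), IFITM2 (-2.91), FCRL2 (-2.25), ACY3 (-1.54), REPIN1 (-1.46) and TCL1A (-0.94). With a higher interaction they were NME4 (3.14), AQP3 (2.74), HELZ2 (2.4), ACADS (1.66) and ZNF395 (1.53). REPIN1, a zinc finger gene, was at 51.0 to 61.0 CPM across wild type, 77.8 and 90.3 in the EZH2 mutant, 28.0 to 33.6 in the KMT2D mutant and 15.1 to 17.4 in the double mutant, with no overlap between lines. ACADS, a mitochondrial fatty acid dehydrogenase gene, lost its call without EZH2 mutant replicate 2 (1.18, adjusted p = 0.18) or KMT2D mutant replicate 1 (1.59, adjusted p = 0.053).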

How the results depend on the processing

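Of 88 named genes called for the interaction, 42 kept the call in each of the 23 alternatives they could be fitted in, and no named gene changed sign but KMT2D, which was not called: -0.09 thinned to equal depth, and -0.01 to 1.09 on leaving out 1 library. With no filter on low counts, 354 genes were called off 19q, 170 of them higher and 239 at least 1 in size (148 in the main analysis), with 124 higher on 19q and 103 and 106 in the classes of 68 and 30. Thinned to equal depth, the counts were 97 off 19q, 59 lower, 85 at least 1 in size, 36 higher and 0 lower on 19q, and 39 and 21 in the classes of 68 and 52, so depth limits the calls. Named genes that lost their call in that setting alone included ANKS6, PLCH2, CAPG, CD300A, HK1 and MX1. DESeq2 and the strict filter (minimum count 30) each gave 1 lower call on 19q. The offset for the distal arm gave 10 higher and 6 lower calls and a median of -0.0 on 19q, by construction. Without 19q, 142 genes were called, 50 higher and 92 lower, and the median elsewhere was 0.03. In that fit the classes of 68, 30 and 52 held 46, 25 and 37 genes. POU2AF1, CD79B, INPP5D, LTB, NLRC5, RRP12 and PTTG1 were among the named genes that lost their calls there. The main adjustment covered all 8813 genes, those of 19q included. Leaving out 1 library gave 114 to 235 calls off 19q, 37 to 109 higher, 77 to 126 lower and 99 to 189 at least 1 in size. On 19q it gave 20 to 100 higher, 0 to 2 lower and a median of 0.62 to 0.84, against -0.03 to 0.03 elsewhere. The classes of 68, 30 and 52 then held 37 to 68, 18 to 67 and 23 to 48. Where the EZH2 line was left with 1 EZH2 mutant library, that library is assumed to vary like the other lines. Beyond these construction effects the cause was not tested.

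Replicate numbers are shared between lines, but 15 pairs with the same number correlated at -0.29 to 0.38, 5 of them over 0.1, and 7 of 11 libraries correlated best with their own number, a hint from the data only, so the numbers were not taken to pair libraries. With a replicate block, 60 genes were called higher and 100 lower off 19q, and 68 and 2 on 19q.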
